A study of Homo sapiens with 10 samples.

Results

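Long noncoding RNAs with a history in lung cancer cells were followed in A549 cells: MALAT1, NEAT1, H19, LUCAT1, UCA1, PVT1, GAS5, SNHG1, MIR31HG and HOTAIR. They were taken by name from the gene rows of a count table, with no threshold on their values. Of the 10 named RNAs, 6 had a row among the 33551 rows: MALAT1, NEAT1, PVT1, LUCAT1, HOTAIR and UCA1. H19, GAS5, SNHG1 and MIR31HG were not analysed here. GENCODE release 29 gives the first 3 of these 4 the type processed_transcript and MIR31HG the type sense_overlapping. Genes of these types were mostly without a row here (35 rows for 601 annotated processed_transcript genes and 4 for 180 sense_overlapping genes), against 7243 rows for 7635 lincRNA genes and 5347 rows for 5587 antisense genes.

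A549 is an established human lung adenocarcinoma line. ABCA3 moves lipids into lamellar bodies, the surfactant stores of alveolar type 2 cells. The study had 5 A549 lines: 1 with wild-type ABCA3 (WT), 1 labelled as its knockout (KO), and 3 named for the ABCA3 substitutions L101P, E292V and E690K. A line gave 1 untreated library and 1 library after overnight exposure, at a multiplicity of infection of 20, to LV-ABCA3:GFP, a lentiviral vector that carries ABCA3 joined to GFP and was packaged with the VSVG envelope. That makes 10 libraries of total RNA with no repeat of any line and treatment, no vector without ABCA3 among the groups, and 1 line for each genotype, so that a property of one line and an effect of its genotype cannot be told apart.

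Total counts ran from 59430095 (untreated L101P) to 96811421 (transduced L101P). The epithelial keratins KRT8 and KRT18 were at 3720 to 7720 and 1610 to 3240 CPM (the count divided by the library total, multiplied by 1000000), while the alveolar type 2 markers SFTPC, SFTPB, SFTPA1 and NKX2-1 stayed at or under 0.337 CPM in the 10 libraries and NAPSA at 0.358 to 1.15 CPM. Of the other epithelial markers, KRT7 was at 2540 to 3330 CPM, while EPCAM (7.73 to 22.2 CPM) and CDH1 (21.2 to 36.4 CPM) were far lower. The cells thus carried abundant epithelial keratin RNA, much less EPCAM and CDH1 RNA, and hardly any type 2 marker RNA. Leukocyte and endothelial markers lay under 1 CPM, as did the fibroblast markers other than COL1A1 (13.8 to 118 CPM). In the KO pair, ABCA3 and EGFP went against the labels: ABCA3 was at 601 CPM in the library labelled KO untreated and at 25.8 CPM in the one labelled KO transduced, and EGFP at 37.9 and 0.0492 CPM. In the other lines EGFP was higher in the transduced library but was present in the untreated one too: 70.9 and 153 CPM in WT, 1.01 and 35.9 in L101P, 20.7 and 66.8 in E292V, and 16.3 and 18.0 in E690K. ABCA3 was at 362 and 610 CPM in WT, 1160 and 896 in L101P, 992 and 1030 in E292V, and 890 and 968 in E690K. Untreated libraries were thus not free of EGFP counts, E690K hardly differed between its 2 libraries, and every direction from untreated to transduced below, in the KO pair above all, rests on the labels.

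Long noncoding RNAs are transcripts that are not translated and act, where a function is known, as RNA. NEAT1 and MALAT1 are neighbouring nuclear RNAs: the long isoform of NEAT1 is the scaffold of paraspeckles, nuclear bodies that hold RNA-binding proteins, and MALAT1 gathers in nuclear speckles beside splicing factors and was first described in metastatic lung adenocarcinoma. PVT1 lies beside the MYC oncogene, LUCAT1 is a stress-responsive RNA first described in smoke-exposed airway cells, HOTAIR is an antisense transcript of the HOXC cluster, and UCA1 was first described in bladder carcinoma. H19 is an imprinted transcript, GAS5 and SNHG1 are hosts of small nucleolar RNAs, and MIR31HG is the host transcript of miR-31.

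NEAT1 and MALAT1 share an unusual 3′ end, which is shown here because it bears on which libraries can hold these RNAs. The long NEAT1 transcript and MALAT1 are cut by RNase P and end without a poly(A) tail added after cleavage. A pair of U-rich stretches folds with an A-rich tract into a triple helix that protects the end. A total-RNA library can keep such molecules, and whether these 10 libraries did was not tested. The following stretches are from GENCODE 29 on GRCh38, both on the plus strand, with the U-rich stretches (TTTCTTTT and TTTTGCTTTT as DNA) and the A-rich tract in capitals.
NEAT1, last 100 bases of the 22743-base transcript, chr11:65445441-65445540: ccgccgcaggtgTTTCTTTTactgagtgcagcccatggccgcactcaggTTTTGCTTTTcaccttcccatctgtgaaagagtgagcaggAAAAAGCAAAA
MALAT1, bases 8250 to 8349 of an 8708-base transcript, chr11:65506011-65506110: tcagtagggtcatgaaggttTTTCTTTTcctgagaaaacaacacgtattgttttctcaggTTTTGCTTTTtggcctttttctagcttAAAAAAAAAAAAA
Both stretches hold TTTCTTTT and TTTTGCTTTT in the same order. The MALAT1 window stops in a run of A, so its A-rich tract is marked only up to the edge of the window. Of 203677 annotated transcripts, 1.25% hold the first run of letters in their last 100 bases, 0.0859% hold the second and 0.00491% (10 transcripts) hold both. The MALAT1 stretch lies before the end of its annotated transcript, so these shares apply to the NEAT1 window and not to that of MALAT1. The letters were not tested for a function here.

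A promoter is shown for LUCAT1 because LUCAT1 is counted among the genes answering to NRF2, the oxidative stress factor, which A549 cells are known to hold active through a KEAP1 mutation. The window is from RefSeq on GRCh38.p14, minus strand, from 250 bases before to 50 bases after the start.
LUCAT1 promoter, chr5:91314353-91314652: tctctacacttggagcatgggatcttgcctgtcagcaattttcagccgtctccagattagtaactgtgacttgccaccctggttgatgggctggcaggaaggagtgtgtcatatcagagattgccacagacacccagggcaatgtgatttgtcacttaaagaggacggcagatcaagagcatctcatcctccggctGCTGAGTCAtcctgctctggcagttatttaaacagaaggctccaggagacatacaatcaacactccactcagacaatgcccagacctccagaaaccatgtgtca
The capitals mark a match, starting at position -54, to the antioxidant response element core TGACNNNGC as read on the opposite strand (GCNNNGTCA). The same letters contain the AP-1 site TGAGTCA at position -52, so the 2 matches overlap. That site reads TGACTCA on the other strand. On either strand, 13.3% of 35116 promoter windows of that length hold the TGACNNNGC core and 4.95% the AP-1 letters. The TATA-box letters TATAAA, held by 11.5% of the windows, were not found in this one.

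Per length, the 6 measured RNAs spanned more than 3 orders of magnitude, and the word abundant fits only some of them. MALAT1 (GRCh38 chr11:65497688-65506516, plus strand, 8829 exonic bases) averaged 15.9 CPM per kb of exons, rank 19 among the 12641 rows of long noncoding genes. NEAT1 (chr11:65422774-65445540, plus strand, 22767 exonic bases) averaged 6.97 CPM per kb and rank 51, and PVT1 (chr8:127794533-128101253, plus strand, 5493 exonic bases) 4.71 CPM per kb and rank 87. These 3 stood well inside the top of the list, above LUCAT1, HOTAIR and UCA1.

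LUCAT1 (chr5:91054834-91314547, minus strand, 16538 exonic bases over 55 transcripts) averaged 0.552 CPM per kb at rank 860. HOTAIR (chr12:53962308-53974956, minus strand, 2602 exonic bases) averaged 0.336 CPM per kb at rank 1284, and UCA1 (chr19:15828206-15836326, plus strand, 4152 exonic bases) 0.0052 CPM per kb at rank 5827. In single libraries MALAT1 (11.9 to 18.8 CPM per kb) lay above NEAT1 (3.83 to 10.6) without overlap. The range of NEAT1 overlapped that of PVT1 (3.87 to 5.46), and that of LUCAT1 (0.397 to 0.748) overlapped that of HOTAIR (0.147 to 0.508). Within a library NEAT1 was above PVT1 in 9 of 10, all but transduced L101P, and LUCAT1 above HOTAIR in 10 of 10. The length of LUCAT1 depends on the annotation, since RefSeq gives it a span of 11417 bases against the longer GENCODE model. The NEAT1 length takes all its exons together, while its count adds isoforms of 3441 and 22743 bases. Their mix was not measured, and the level of NEAT1 per kb, its rank and its place below MALAT1 depend on it.

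**Figure D1:**
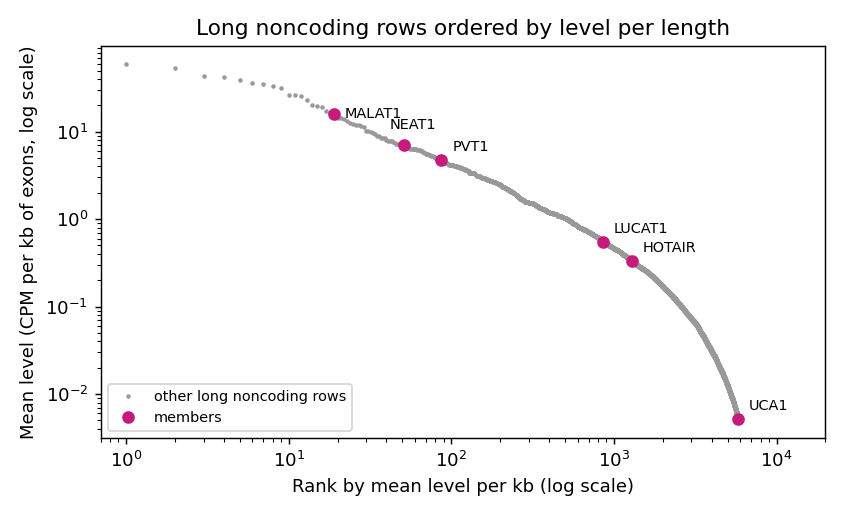
Mean level over 10 libraries in CPM per kb of exons (y, log scale) against rank (x, log scale) for long noncoding rows at 0.005 CPM per kb or more; large points are the 6 measured RNAs. MALAT1 (rank 19), NEAT1 (51) and PVT1 (87) sit near the top, and LUCAT1 (860) and HOTAIR (1284) lie below them. UCA1 (rank 5827 of 12641 rows) is at the lower end only of the rows shown.

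Without the length correction, NEAT1 (mean 159 CPM) and MALAT1 (mean 140 CPM) took ranks 3 and 4 by reads among the long noncoding rows. Together they made up 86.1% to 91.0% of the counts of the 6 RNAs and 4.89% to 7.51% of the counts of all long noncoding rows. These ranks and shares, and the ranks per length, cover only genes with a row, and most processed_transcript genes had none. The 6 RNAs took 0.0246% (transduced L101P) to 0.0434% (untreated E292V) of a library. All long noncoding rows together took 0.444% to 0.524%, with the same 2 libraries at the ends.

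NEAT1 was the one of the 5 RNAs tested whose level differed among the lines. In WT it was at 164 CPM untreated and 189 CPM transduced. In the KO pair it was at 156 and 125 CPM, and in L101P at 151 and 87.3 CPM. In E292V it was at 241 and 185 CPM, and in E690K at 143 and 144 CPM. The untreated E292V library was the highest and the transduced L101P library the lowest of the 10, a 2.76-fold span. Both E292V libraries lay above both libraries of KO, L101P and E690K, while the WT pair overlapped the E292V pair.

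In a fit with terms for line and vector, NEAT1 had an adjusted p of 0.0297 in the test of any difference among the 5 lines (edgeR's quasi-likelihood test with Benjamini-Hochberg adjustment over 17978 genes). It was 1 of 5 members tested that passed the threshold of 0.05, and 3 of the 5 had an unadjusted p under 0.05. Over all genes the same test called 13.0% (25.7% at an unadjusted p under 0.05), and 2.58% of the 3096 long noncoding rows tested. Line means (geometric) were 211 CPM in E292V, 176 in WT, 144 in E690K, 140 in KO and 115 in L101P. No single line separated from WT after adjustment. L101P came nearest, with a log2 fold change of -0.57 ± 0.17 (SE), an unadjusted p of 0.00449 and an adjusted p of 0.0778 by the same test. That difference was -0.11 between the untreated and -1.12 between the transduced libraries, so the transduced L101P library carried most of it.

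The NEAT1 call rested on few libraries. It was lost without the E292V pair (adjusted p 0.259), without E690K (0.0521) or without KO (0.0518), with the KO pair's labels exchanged (0.0959) and in the likelihood ratio test of DESeq2 (0.0738). Over 11 alternative settings the adjusted p ran from 3.16e-09 to 0.259, and the call was kept in 6. The share of long noncoding counts was lowest and highest in the same libraries as NEAT1 (0.444% and 0.524%), and its part in the NEAT1 difference was not tested. In bulk RNA, fewer cells with an RNA and less of it per cell cannot be told apart. A gene-level count also adds the short, polyadenylated NEAT1 isoform to the long one.

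**Figure D2:**
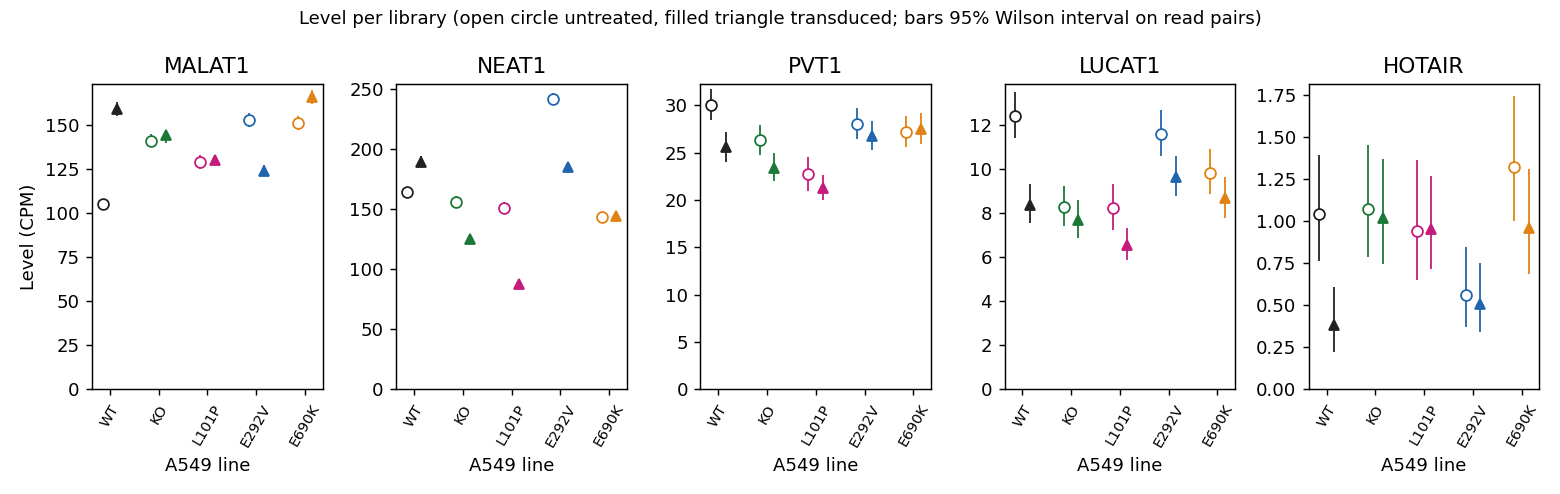
Level of 5 long noncoding RNAs in each library in CPM (y, from 0) by A549 line (x); open circles are untreated and filled triangles transduced libraries, and bars are 95% Wilson intervals on read pairs (counting error only). NEAT1 peaks in untreated E292V at 241 CPM and is lowest in transduced L101P at 87.3 CPM. LUCAT1 is lower in the library labelled transduced of each line, and ABCA3 and EGFP contradict the labels of the KO pair.

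MALAT1, read from the neighbouring gene 52147 bases away on the same strand, did not follow NEAT1. It was at 105 CPM untreated and 159 CPM transduced in WT, and at 141 and 144 CPM in the KO pair. It was at 129 and 130 CPM in L101P, at 153 and 124 CPM in E292V, and at 151 and 166 CPM in E690K. The span was 1.58-fold, with untreated WT lowest and transduced E690K highest. The WT pair alone covered most of that span, so that WT overlapped each of the other lines.

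The line means of MALAT1 spanned 0.29 on the log2 scale, against 0.60 for the change within the WT pair. The test among lines gave an adjusted p of 0.474 for MALAT1. Its largest line difference was E690K against WT, a log2 fold change of 0.32 ± 0.14 (SE) with an unadjusted p of 0.0463 and an adjusted p of 0.248. The direction of that difference was carried by the untreated libraries (0.53) more than by the transduced ones (0.06). Against WT, the untreated libraries of the 4 other lines were higher in MALAT1 by 0.30 to 0.55, and 3 of the 4 transduced ones were lower.

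The ratio of NEAT1 to MALAT1 counts, which is free of the library total but not of gene length, was 1.57 untreated and 1.19 transduced in WT. It was 1.11 and 0.869 in the KO pair and 1.17 and 0.673 in L101P. In E292V it was 1.58 and 1.49, and in E690K 0.947 and 0.871. The ratio was thus lower in the library labelled transduced in 5 of 5 lines. This is a description made after seeing the values, with no test, and in the KO pair it rests on labels that ABCA3 and EGFP contradict.

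**Figure D3:**
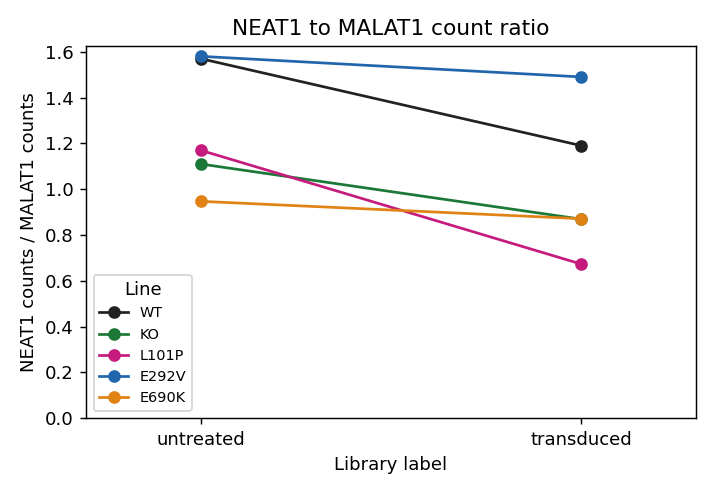
Ratio of NEAT1 to MALAT1 counts (y, from 0) in the untreated and the transduced library of each A549 line (x); a line joins the 2 libraries of one cell line. The ratio runs from 0.673 in transduced L101P to 1.58 in untreated E292V and is lower in the library labelled transduced in all 5 lines.

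FRMD8, the expressed gene 9248 bases before NEAT1, was at 72.9 to 84.8 CPM and did not pass the same test among lines (adjusted p 0.240). The 2 genes whose log2 CPM followed that of NEAT1 most closely over the 10 libraries, among 10680 genes at 5 CPM or more, were SLX4, a scaffold for DNA repair nucleases (Pearson r = 0.98, 19 to 34 CPM), and ABLIM1, an actin-binding protein (r = 0.98, 107 to 153 CPM). These are the closest of many genes over few libraries that share depth and line, and are given as a description.

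Paraspeckle proteins bind NEAT1, and 14 of them were tested. PSPC1, a core paraspeckle protein, was the 1 that differed among lines (adjusted p 0.0162 by edgeR), no larger a share than the 13.0% of all genes. It was at 64.1 to 66.9 CPM in WT, at 48.8 and 50.6 CPM in L101P and at 49.4 and 49.2 CPM in E690K. PSPC1 was lower than WT by the fit in L101P (-0.36 ± 0.08, adjusted p 0.0286) and in E690K (-0.36 ± 0.08, adjusted p 0.0222), and the pairs did not overlap. HNRNPK had the highest level of the list, at a mean of 800 CPM. The row name of MATR3 (mean 2.27 CPM) did not match 1 unique gene of the annotation, so this row does not settle its level. The list's median log2 difference was 0.02 in L101P and 0.06 in E690K, beside -0.01 and -0.02 over all genes.

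Of 12 nuclear speckle and splicing proteins, the company of MALAT1, none differed among lines by edgeR after adjustment and 1 had an unadjusted p under 0.05. Over all genes these shares were 13.0% and 25.7%. U2AF2 had the highest level, at a mean of 553 CPM.

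PVT1 had the narrowest range of the 6 RNAs, 1.41-fold. It was at 30.0 CPM untreated and 25.6 CPM transduced in WT, at 26.3 and 23.4 CPM in the KO pair and at 22.7 and 21.3 CPM in L101P. It was at 28.0 and 26.8 CPM in E292V and at 27.2 and 27.5 CPM in E690K. Both L101P libraries lay below the other 8, the KO pair lay below both E292V and both E690K libraries, and WT overlapped KO, E292V and E690K. The test among lines gave an adjusted p of 0.158 (unadjusted 0.0361), and L101P against WT a log2 fold change of -0.30 ± 0.10 (SE) with an unadjusted p of 0.0106 and an adjusted p of 0.125.

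MYC, the proliferation factor 53098 bases before PVT1, was at 118 CPM in transduced L101P and at 137 to 180 CPM elsewhere, with an adjusted p of 0.0815 among lines. None of the 3 genes tested of the PVT1 region passed the test among lines by edgeR, and 1 had an unadjusted p under 0.05. Among all genes, 13.0% passed and 25.7% had an unadjusted p under 0.05.

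LUCAT1 was at 12.4 CPM untreated and 8.39 CPM transduced in WT, and at 8.28 and 7.68 CPM in the KO pair. It was at 8.23 and 6.56 CPM in L101P, at 11.6 and 9.64 CPM in E292V and at 9.82 and 8.69 CPM in E690K. Untreated WT was the highest and transduced L101P the lowest, a 1.89-fold span. The WT and E292V libraries lay above both libraries of KO and L101P, in WT by a narrow margin, and WT, E292V and E690K overlapped each other. Among lines, LUCAT1 had an adjusted p of 0.121 (unadjusted 0.0241). Its log2 difference from WT was -0.44 ± 0.15 in L101P (unadjusted p 0.0101, adjusted 0.122) and -0.33 ± 0.15 in KO (unadjusted p 0.0407, adjusted 0.325). The LUCAT1 span crosses ADGRV1 on the opposite strand (mean 1.94 CPM) with no shared exonic bases, and whether counting used strand is not given in the sources used here.

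NRF2 target genes are given beside LUCAT1 because of its promoter match. Of the 12 tested, 6 differed among lines, beside 13.0% of all genes, and they did not move in one direction. AKR1C1 and AKR1B10, reductases of reactive carbonyls, had adjusted p-values of 0.00036 and 0.00152. AKR1C1 was higher than WT in L101P (0.52 ± 0.12, adjusted p 0.0286) and lower in E292V (-0.66 ± 0.12, adjusted p 0.0197). HMOX1, which breaks down haem, had 0.0105, and TXNRD1, thioredoxin reductase and the list's highest level at a mean of 2740 CPM, had 0.0126. AKR1B10 and TXNRD1 were higher than WT in KO (0.52 ± 0.11 and 0.33 ± 0.06, adjusted p 0.0336 and 0.0258) and in L101P (0.47 ± 0.11 and 0.29 ± 0.06, adjusted p 0.0318 and 0.0277). HMOX1 fell below WT in KO (-0.93 ± 0.20), L101P (-0.98 ± 0.20) and E690K (-0.88 ± 0.20), with adjusted p-values of 0.0354, 0.0179 and 0.0232. The fitted LUCAT1 differences from WT in KO, L101P and E690K were -0.33, -0.44 and -0.10, and none passed the adjusted test.

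Of the expressed genes beside LUCAT1, ARRDC3, an arrestin-like adaptor 54176 bases away, differed among lines (29.6 to 56.7 CPM, adjusted p 0.0151). LYSMD3, 525249 bases to the other side, did not pass (15.2 to 21.2 CPM, adjusted p 0.806).

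HOTAIR rested on 31 to 100 counts per library. It was at 1.04 CPM untreated and 0.382 CPM transduced in WT, at 1.07 and 1.02 CPM in the KO pair and at 0.942 and 0.950 CPM in L101P. It was at 0.558 and 0.506 CPM in E292V and at 1.32 and 0.960 CPM in E690K. The counting intervals of the WT pair did not overlap (0.764 to 1.39 against 0.224 to 0.609 CPM). Both E292V libraries lay below the 6 libraries of KO, L101P and E690K, and above transduced WT. HOTAIR had an adjusted p of 0.331 among lines. E690K had the largest difference from WT, a log2 fold change of 0.78 ± 0.44 (SE, adjusted p 0.375), and it lay at 0.34 between untreated and 1.32 between transduced libraries, so the low transduced WT library weighed on it.

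HOTAIR is annotated across HOXC11 on the opposite strand (mean 3.02 CPM) with no shared exonic bases. Of the HOXC cluster, 10 genes were tested (13.0% of all genes passed) and HOXC13, 15763 bases to the left of HOTAIR, was the 1 that differed among lines (adjusted p 0.025) and the one with the highest level (mean 14.8 CPM). HOXC13 was at 7.97 CPM in transduced E292V and at 23.1 CPM in transduced L101P. No single line passed against WT, with E292V nearest at -0.74 ± 0.20 (adjusted p 0.137). HOXC10, 10108 bases to the right, had an adjusted p of 0.553. The row name of HOXC5, among the 10 tested, did not match 1 unique gene of the annotation.

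UCA1 was hardly detected. It had 3 counts in untreated WT, 6 in the library labelled KO transduced, 2 in each L101P library, in untreated E292V and in untreated E690K, and 0 in the other 4. The highest level, 0.0739 CPM, had a 95% Wilson interval of 0.0251 to 0.217 CPM. In transduced WT, 0 counts allow up to 0.0946 CPM by the upper Wilson bound on read pairs. A floor of 3 counts there equals 0.0369 CPM, but it takes counts singly and not in pairs. No difference between libraries was detectable at this depth, and UCA1 did not pass the low-count filter and was not tested. UCA1 shares 489 exonic bases with LINC01764 on the opposite strand, as MALAT1 shares 396 with AP000769.2. Whether such shared bases lowered the counts was not tested, and use of strand in counting is not given. Beside it lie cytochrome P450 genes of the CYP4F cluster, of which 5 were tested and 2 differed among lines, beside 13.0% of all genes: CYP4F11 (4.25 to 11.5 CPM, adjusted p 0.00288; higher than WT in L101P by 0.90 ± 0.20, adjusted p 0.025) and CYP4F12 (6.25 to 12.1 CPM, adjusted p 0.0273). CYP4F3 had the highest level of the cluster, at a mean of 29.5 CPM.

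Against WT, no member passed the adjusted threshold in any single line by edgeR, and DESeq2 called 0 as well. In KO, 1 of the 5 tested had an unadjusted p under 0.05, beside 14.1% of all genes, with 1.80% after adjustment. In L101P it was 3 of 5 (NEAT1, PVT1 and LUCAT1, each lower), beside 18.3% of all genes, with 3.94% after adjustment. In E292V it was 0 of 5, beside 10.3% of all genes, with 1.05% after adjustment. In E690K it was 1 of 5 (MALAT1, higher), beside 19.3% of all genes, with 5.38% after adjustment. The median log2 difference of the 5 members in L101P was -0.30, against -0.01 over all genes and -0.19 over long noncoding rows. In KO these medians were -0.13, -0.01 and -0.15, in E292V 0.04, 0.00 and 0.03, and in E690K 0.03, -0.02 and -0.06. The lines share the WT libraries as their reference.

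**Figure D4:**
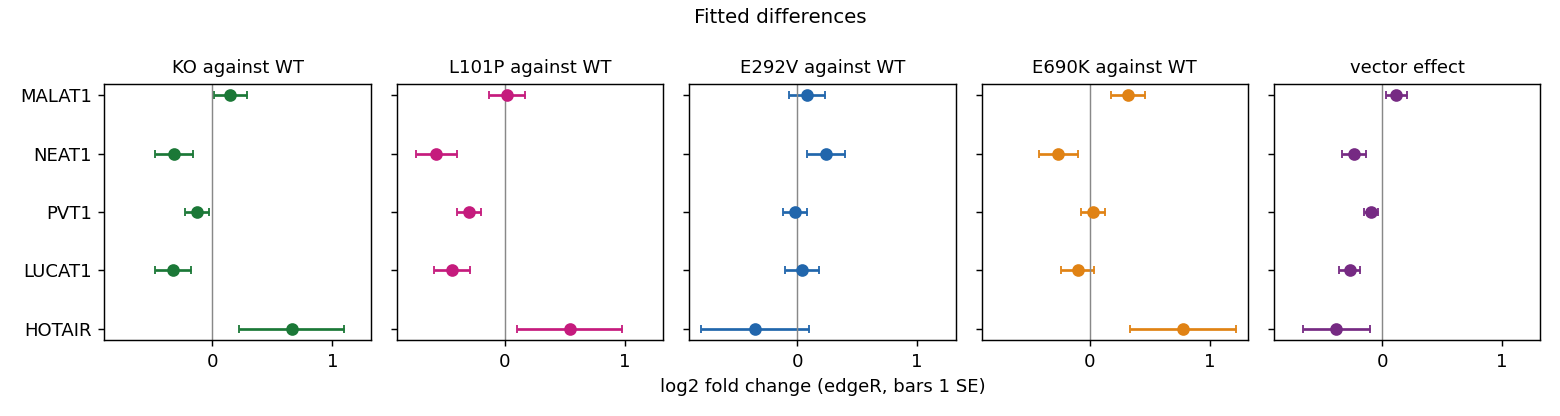
Fitted log2 fold change (x) of 5 long noncoding RNAs in each line against WT and for the vector over the 5 lines, by edgeR; bars are 1 SE. NEAT1, PVT1 and LUCAT1 lie left of 0 in L101P (-0.57, -0.30 and -0.44), and no point passes the adjusted threshold of 0.05.

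For the vector, taken over the 5 lines with line as the block, 0 of the 5 members passed by edgeR and by DESeq2, and 2 had an unadjusted p under 0.05. Over all genes edgeR called 0%, with 1236 of 17978 (6.88%) at an unadjusted p under 0.05, and DESeq2 called 113. LUCAT1 was lower in the transduced library in 5 of 5 lines, with changes of -0.56 in WT, -0.11 in the KO pair as labelled, -0.33 in L101P, -0.27 in E292V and -0.18 in E690K on the log2 scale. The fitted LUCAT1 change was -0.27 ± 0.09 (SE, unadjusted p 0.0128, adjusted p 0.541), or -0.23 with the KO pair's labels exchanged. NEAT1 had a fitted change of -0.23 ± 0.10 (unadjusted p 0.0447, adjusted p 0.706) but was lower in 3 of 5 lines, with -0.80 in L101P and 0.21 in WT, and its fitted change was -0.10 without L101P and -0.11 with the KO pair's labels exchanged.

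PVT1 was lower in 4 of 5 lines by at most 0.23 and its fitted change was -0.09 ± 0.06 (-0.03 with the KO pair's labels exchanged). MALAT1 was higher in 4 of 5 lines, from 0.01 in L101P to 0.60 in WT, with a fitted change of 0.12 ± 0.09, and without the WT pair the fitted change was -0.01. HOTAIR was lower in 4 of 5 lines, from -0.06 in the KO pair to -1.43 in WT, with a fitted change of -0.38 ± 0.28, or -0.14 without the WT pair. Adjusted p-values of PVT1, MALAT1 and HOTAIR were 0.873 to 0.895. The median change of the 5 members was -0.23, against 0.00 over all genes and -0.09 over long noncoding rows. WT showed the largest change of any line for MALAT1, PVT1, LUCAT1 and HOTAIR.

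**Figure D5:**
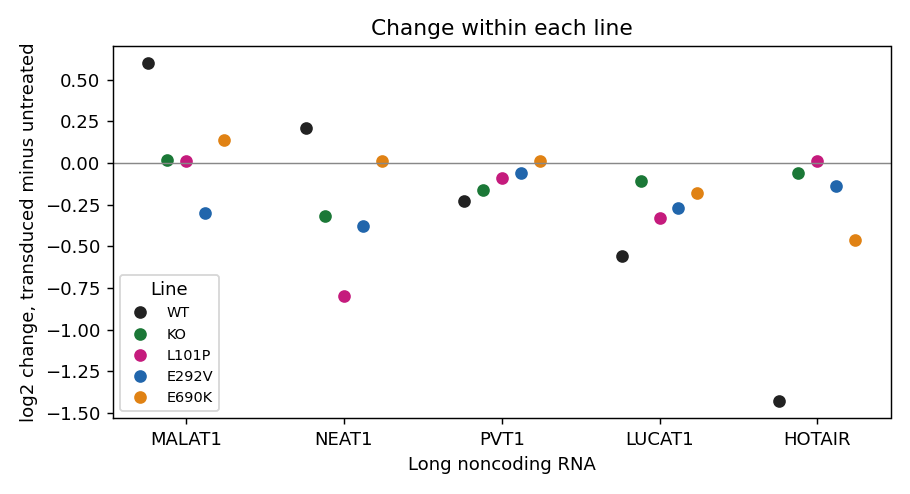
Change in log2 CPM from the untreated to the transduced library (y) for 5 long noncoding RNAs (x), 1 point per A549 line. LUCAT1 is below 0 in all 5 lines as labelled (-0.11 to -0.56), and HOTAIR in WT has the largest change at -1.43. ABCA3 and EGFP contradict the labels of the KO pair.

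Relatives of the 4 members without a row were measured in part. Of the other small nucleolar RNA host genes, the class of GAS5 and SNHG1, 10 were tested and 2 differed among lines. The same test called 13.0% of all genes and 2.58% of long noncoding rows. SNHG19 was at 17.4 and 14.6 CPM in WT, at 10.8 and 8.88 CPM in the KO pair, at 8.55 and 6.70 CPM in L101P, at 15.4 and 13.7 CPM in E292V and at 9.06 and 7.60 CPM in E690K. SNHG19 fell below WT in KO (-0.68 ± 0.12, adjusted p 0.0142), L101P (-1.03 ± 0.12, adjusted p 0.0013) and E690K (-0.89 ± 0.12, adjusted p 0.00116), with no overlap with WT. SNHG10 was lower in L101P (-0.64 ± 0.14, adjusted p 0.0281). ZFAS1 had the highest level of these hosts, at a mean of 98.1 CPM.

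Of 12 tested imprinted genes and neighbours of H19, 6 differed among lines, beside 13.0% of all genes. MEG3, an imprinted long noncoding RNA, was at 55.8 and 56.2 CPM in WT and at 117 and 127 CPM in E690K. MEG3 was higher than WT in E690K (1.17 ± 0.08, adjusted p 1.58e-05) and in L101P (0.48 ± 0.08, adjusted p 0.00958). PHLDA2, a growth-restraining imprinted gene, was also higher in both (0.52 ± 0.09 and 0.36 ± 0.09, adjusted p 0.00679 and 0.0484). The cell cycle inhibitor CDKN1C (adjusted p 0.011) and the antisense RNA KCNQ1OT1 (adjusted p 0.0155) differed among lines but passed in no single line. PEG10 was the highest of the list at a mean of 106 CPM, and IGF2, the partner of H19, had 0 counts in the 10 libraries. The IGF2 row name did not match 1 unique gene of the annotation, so these counts do not settle whether IGF2 was expressed.

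Around MIR31HG, 5 genes were tested and none differed among lines by edgeR, nor had one an unadjusted p under 0.05. The shares of all genes were 13.0% and 25.7%. FOCAD was highest there at a mean of 83.1 CPM, and CDKN2A and CDKN2B, which A549 cells are known to have lost, had 0 counts in the 10 libraries. Of 16 other long noncoding RNAs tested, 3 differed among lines, beside 13.0% of all genes and 2.58% of long noncoding rows: MEG3, KCNQ1OT1 and LINC00511 (adjusted p 0.0373; higher in L101P by 0.37 ± 0.09, adjusted p 0.044). NORAD, a cytoplasmic RNA that binds Pumilio proteins, was highest at a mean of 210 CPM.

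Of 2 structural RNAs tested, neither differed among lines by edgeR (13.0% of all genes did). Neither had an unadjusted p under 0.05, beside 25.7% of all genes. RMRP was the higher at a mean of 11.2 CPM, but its row name did not match 1 unique gene of the annotation. Of 8 p53 targets, 2 differed, beside 13.0% of all genes: the stress cytokine GDF15 (adjusted p 0.00036; log2 -1.09 ± 0.14 in L101P and -1.30 ± 0.14 in E690K against WT, adjusted p 0.00168 and 0.00028) and BAX, which promotes apoptosis (adjusted p 0.0108; log2 -0.39 ± 0.10 in L101P, adjusted p 0.0416). The vector moved 0 genes of any of these lists past the adjusted threshold by edgeR.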

How the data were processed

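The deposited file holds whole-number counts per gene for the 10 libraries. The submitters' processing notes name featureCounts, Subread, edgeR, limma and GRCh38, without roles. Of the row names, 98.5% matched 1 gene of GENCODE 29, the source of coordinates and lengths. Low counts were mostly even (81.4% of values from 1 to 10), so Wilson 95% intervals used read pairs, the count divided by 2. Reads carry no molecular identifiers, so intervals and floors cover counting error only.

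Counts were tested with edgeR 4.0.16 in R 4.3.3: filterByExpr (17978 genes kept), TMM factors (0.972 to 1.03), an additive model of line and vector (4 residual degrees of freedom), the quasi-likelihood test and Benjamini-Hochberg adjustment over all genes kept, with a threshold of 0.05. The SE was the log2 fold change divided by the square root of F. Line pairs the libraries, since both come from the same cell line. The labels name no separate cultures. The p-values therefore judge line and vector differences against the departure of these libraries from additivity, and not against a spread between cultures. DESeq2 1.42.0 and other filters, scalings and left-out lines were alternatives. The script was tested on simulated data.

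The 10 members and the gene lists were chosen with earlier results of these data known. Named were the members; up to 4 genes per list with an adjusted p under 0.05 among lines, in order of p, and the highest-level gene of each list; expressed neighbours (1 CPM or more); and, for a member that passed, the 2 genes with the most similar log2 CPM. One neighbouring gene is not reported here.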

Additional observations from a re-analysis of the deposited data

Results flagged for a closer look

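NEAT1 in untreated E292V stood apart from the other untreated libraries: it was at 7.91 on the scale of log2 CPM, against 7.16 to 7.36 in the other 4, and its gap to the nearest was 0.736 of the whole range, above the 95% critical value of 0.71 of Dixon's test. Of 15 sets of 5 values examined (untreated levels, transduced levels and changes within lines) this was the 1 that passed, and chance passes about 1 in 20. The transduced E292V library, at 185 CPM, did not stand apart in this way.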

How the results depend on the processing

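The number of members that differed among lines was 1, and it became 0 under DESeq2, 0 with the KO pair's labels exchanged, and 0 to 1 when one line at a time was left out (0 without E292V, E690K or KO). With no low-count filter, 1 member passed in L101P against WT (NEAT1, -0.57, adjusted p 2.93e-05) and 1 in E690K (MALAT1, 0.32, adjusted p 0.0268). The other counts of members stayed at 0. Under library totals alone the fitted difference of MALAT1 in L101P turned to -0.02 and that of PVT1 in E690K to -0.02. The vector change of MALAT1 (0.12) ran from -0.01 to 0.21 as one line at a time was left out, with -0.01 without WT and 0.21 without E292V. Likewise that of NEAT1 (-0.23) ran from -0.35 to -0.10 and that of HOTAIR (-0.38) from -0.50 to -0.14. The cause of these shifts was not tested. A vector fit with no replicate block, that is without pairing by line, gave 0 members. Over all genes, counts ran from 931 to 3730 among lines (2337 as reported), 142 to 1124 in KO (323), 367 to 1437 in L101P (709), 57 to 689 in E292V (189), 599 to 1993 in E690K (967) and 0 to 237 for the vector (0). For the vector, DESeq2 gave 113, no filter 237, leaving out L101P 133 and leaving out E690K 3. Library totals alone moved the higher share of calls, to 432 of 1103 in E690K (548 of 967 as reported), 324 of 704 in L101P (419 of 709) and 109 of 322 in KO (145 of 323). Depth limits HOTAIR (31 to 100 counts) and UCA1 (0 to 6 counts).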
